A study of Homo sapiens with 17 samples.

Results

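The genes described here are the 4 JAK kinases (JAK1, JAK2, JAK3 and TYK2) and 5 STAT transcription factors (STAT2, STAT3, STAT4, STAT5A and STAT5B), taken by name from the genes on the array. Of these 9 genes, 8 had a probe set that the platform annotation gives to that gene alone, among 18377 such genes in all; STAT2 was not analysed here. Each of the 8 had 1 such probe set, and all 8 passed the filter on low signal, at the 30th percentile, in both the siRNA and the plasmid fit; with the filter at the 50th percentile JAK2 dropped out of the plasmid fit. The samples, each measured on 1 of 17 arrays, were NKYS cells, a human lymphoma line of the NK/T-cell type, grown with recombinant IL-2 and electroporated with siRNAs or plasmids. JAK3 siRNA was given to the cells of 2 arrays and a control siRNA to those of 2 others, which are called the JAK3 arm. EZH2 siRNA was given to 2 and a control siRNA to 2, each control tied by its title to an EZH2 siRNA array (the EZH2 arm); EZH2 is the Polycomb enzyme that methylates histone H3. Of the 9 plasmid samples, 2 were given empty vector and 6 full-length EZH2 (wild type, WT, or the substitutions Y244D or Y244A). The last was given EZH2 from which the SET domain, the methyltransferase part, is deleted. The siRNA sequences, the time after electroporation and the level of the untransfected cells are not given in the sources used here, nor whether arrays with the same treatment came from separate cultures. All groups, controls included, share the cell line, the electroporation and the IL-2 in the medium.

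JAK kinases are bound to the inner part of cytokine receptor chains, where they phosphorylate the receptor and then the STAT factors that dock on it. Phosphorylated STATs pair, enter the nucleus and switch on target genes, among them the SOCS family and CISH, which feed back to inhibit the receptor and its JAKs. In natural killer cells, IL-2 and IL-15 act through JAK1 on the beta chain and JAK3 on the common gamma chain, mainly on STAT5A and STAT5B, while IL-12 acts through TYK2 and JAK2 on STAT4. IL-10 and IL-6 act mainly on STAT3, and JAK3 and STAT3 are known to be active in NK/T-cell lymphoma. Most of this control lies in protein phosphorylation, which these arrays do not measure.

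Of 13 natural killer cell markers, 12 were measured, and NKG7, PRF1, GZMB, NCR1 and IL2RB lay above the 75th percentile of probe sets on all 17 arrays, while GNLY, CD244 and CD2 lay below the median on all of them. Of 10 T cell markers, CD247 and CD4 lay above that percentile and 5 (CD3D, CD3E, CD3G, CD5 and CD28) below the median on all arrays; no B cell, monocyte, or epithelial cell and fibroblast marker was above the 75th percentile throughout. The 8 siRNA arrays had median signals of 60.3 to 62.5. The 9 plasmid arrays had medians of 64.5 to 73.0 and less spread in log2 values, with an interquartile range of 1.79 to 2.18 against 2.27 to 2.33. The plasmid arrays carry set numbers 1 and 2, each with a vector, Y244D, Y244A and WT by title. In set 2 the transfection field names another construct than the title on all 3 full-length arrays, so that these arrays are named here by their titles, with their identity unsettled. The group of 6 full-length plasmids is the same under either label.

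All 8 measured genes lay above the 30th percentile of probe sets on every array. JAK2 came nearest to it, with a lowest percentile of 33.2 on a plasmid array and 60.5 on a siRNA array, so that on the plasmid arrays of set 1 JAK2 is read close to the low end of the signal. STAT3, the factor of IL-6 and IL-10 signalling, was at or above the 97.2 percentile on all arrays. The remaining lowest percentiles over 17 arrays were 92.3 for JAK1, 91.2 for STAT5B, 87.5 for STAT5A, 79.8 for TYK2, 71.7 for JAK3 and 59.5 for STAT4. Levels of different probe sets are not set against each other, since each binds with its own strength.

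Over all 17 arrays the gene that ranged most was JAK3, whose highest signal was 2.69 times its lowest, with both JAK3 siRNA arrays at the bottom. JAK2 followed at 2.46 times, STAT5A and JAK1 at 2.10 times each, STAT5B at 2.04, STAT4 at 1.98, STAT3 at 1.51 and TYK2 at 1.40. Without the JAK3 siRNA arrays JAK3 still ranged 2.36 times, between the array with SET-deleted EZH2 and an EZH2 siRNA array. As deposited, the lowest array was a plasmid array and the highest a siRNA array for JAK1, JAK2, STAT4, STAT5A and STAT5B. The share of all genes with this order was not counted.

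**Figure D1:**
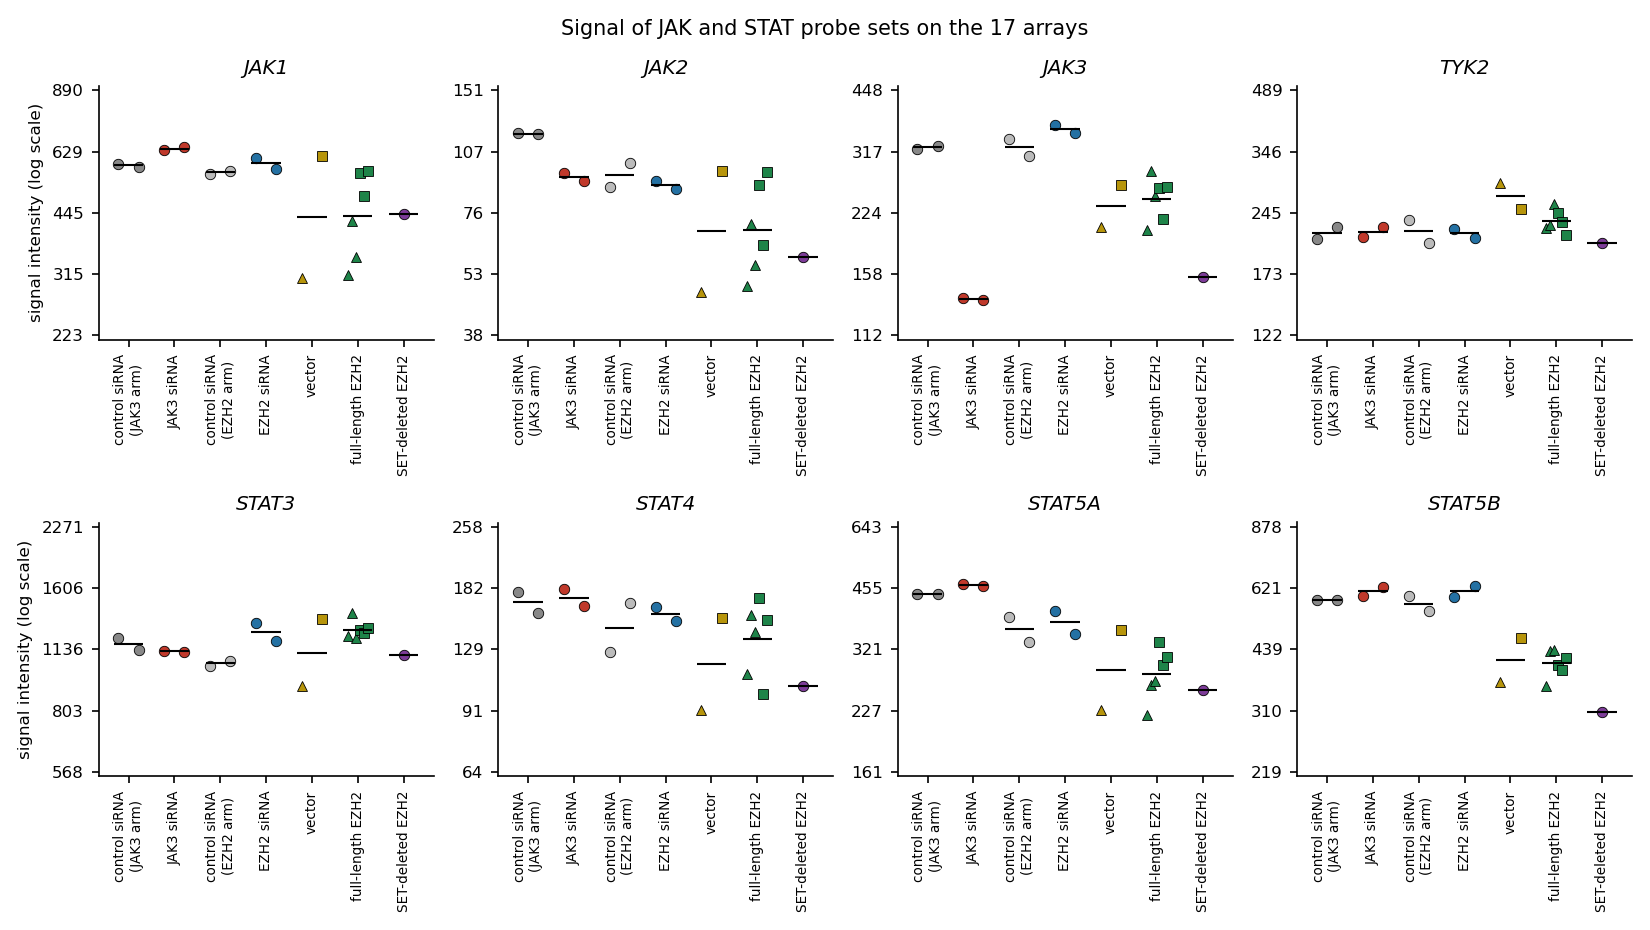
Signal intensity (log scale) of each measured JAK and STAT gene on the 17 arrays by group; every panel spans the same fold range, triangles are plasmid set 1, squares set 2, circles have no set number, and the bar is the geometric mean. JAK3 falls from 322 and 326 to 138 and 137 with its siRNA, and vector arrays of set 1 and set 2 stand far apart for JAK1 (307 and 613) and JAK2 (48.2 and 95.9).

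JAK3 siRNA lowered JAK3 itself and, among the other 7 genes, none passed the test. JAK3, the kinase of the common gamma chain and the target of the siRNA, had signals of 138 and 137 on the 2 JAK3 siRNA arrays and 322 and 326 on their controls, which checks the labels. The mean was 137 ± 0.961 (SD, n = 2) against 324 ± 2.73 (n = 2), and JAK3 fell by 1.24 on the log2 scale (SE 0.069, limma adjusted p = 5.7e-06), or 2.36-fold. With 1 of 8 genes called in this comparison, the share over all 14466 genes tested was 1.38%. JAK3 stayed called under all 13 alternatives, at -1.25 to -1.21.

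JAK2, the kinase that serves IL-12 together with TYK2, read 94.5 and 90.3 with JAK3 siRNA and 118 and 118 on the controls. The groups did not overlap, and the mean was 92.4 ± 3.0 (SD) against 118 ± 0.322 (n = 2 each). The difference of -0.36 (SE 0.080) missed the threshold, with a limma adjusted p of 0.0519 and a 95% interval of -0.53 to -0.18. It passed in 3 of 13 alternatives, and the adjusted p ran from 0.0054 to 0.455 over them. The control arrays of the EZH2 arm, which also had a control siRNA, read 87.4 and 100.5 for JAK2, below both controls of the JAK3 arm, so that the JAK3 siRNA arrays lie inside the range of those other controls.

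JAK1, the partner of JAK3 at the IL-2 receptor, read 634 and 645 against 587 and 576, a log2 difference of 0.14 (SE 0.071, adjusted p = 0.479). TYK2, the kinase of type I interferon and IL-12 receptors, read 213 and 226 against 211 and 226, which are nearly the same pairs of values (difference 0.0068, adjusted p = 0.983). STAT5A and STAT5B, the closely related factors downstream of IL-2, were slightly higher with the siRNA on every array. STAT5A read 466 and 459.6 against 438 and 441 (0.074, adjusted p = 0.734), and STAT5B read 594 and 625 against 579.9 and 582 (0.070, adjusted p = 0.789). Whether the probe sets of these near copies bind both transcripts was not tested.

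STAT3 read 1126 and 1121 with JAK3 siRNA and 1214 and 1131 with the control, a difference of -0.060 (adjusted p = 0.823). STAT4, the factor of IL-12, read 182 and 165 against 178 and 159, with overlapping groups and a difference of 0.040 (adjusted p = 0.932). For the 7 genes other than JAK3, the 95% intervals together ran from -0.53 to 0.29, and missing the threshold does not show that a gene kept its level. In 6 of 8 genes, all but TYK2 and STAT4, the siRNA and control arrays did not overlap, and 48.3% of all genes tested show this with 2 arrays against 2. The summed signal of the natural killer cell markers was 10103 and 10255 with JAK3 siRNA and 9845 and 9944 in the controls, and its part in these results was not tested.

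EZH2 siRNA lowered EZH2, and none of the 8 JAK and STAT genes passed the test. EZH2 read 501 and 489 with its siRNA and 926 and 691 on the paired controls, a fall by 0.69 (SE 0.088, limma adjusted p = 0.0275). Pair 1 showed -0.89 and pair 2 -0.50. Leaving out either array of pair 1 leaves pair 2 alone, and the call was lost there. It was also lost in limma with array weights (adjusted p = 0.116) and with no low-signal filter (0.109). With 0 of 8 genes called by limma, 0.94% of 14466 genes were called, and at an unadjusted p under 0.05 it was 1 of 8 against 15.6%.

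That gene was STAT3, which read 1320.5 and 1189 with EZH2 siRNA and 1035 and 1063 on the controls. The groups did not overlap, both pairs were higher with the siRNA (0.35 and 0.16), and the mean difference was 0.26 (SE 0.076, 95% interval 0.091 to 0.42, adjusted p = 0.125). Leaving out either array of a pair leaves the other pair alone. Such fits repeat the 2 pair values, 0.35 and 0.16, and the EZH2 arm then has no spread of its own. STAT3 was not called by limma in any alternative that kept both pairs. JAK3 read 368 and 352 with EZH2 siRNA against 339.9 and 309.7, higher in both pairs (0.11 and 0.18), with a mean of 0.15 (SE 0.069, adjusted p = 0.328).

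JAK1 read 608 and 572 against 555 and 565 (0.075, adjusted p = 0.719). JAK1, JAK3 and STAT3 were the 3 of 8 genes without overlap between EZH2 siRNA and control arrays, which held for 37.5% of all genes tested. JAK2 and STAT4 went opposite ways in the 2 pairs. JAK2 read 90.6 and 86.3 against 87.4 and 100.5, or 0.052 in pair 1 and -0.22 in pair 2 (mean -0.084, adjusted p = 0.723). STAT4 read 164 and 151 against 127 and 167, or 0.37 and -0.15 (mean 0.11, adjusted p = 0.737), where the spread lies mostly in the control arrays.

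STAT5A read 399.6 and 351 against 385 and 336, with both groups shifted alike between pair 1 and pair 2 and a difference of 0.058 (adjusted p = 0.791). STAT5B read 591 and 628 against 593 and 544 (0.10, adjusted p = 0.615), and TYK2 223 and 212 against 235 and 207 (-0.018, adjusted p = 0.952). In neither gene did the 2 pairs have the same sign. The summed natural killer cell marker signal was 11656 and 11957 with EZH2 siRNA and 7781 and 11033 in the controls, and its part in these results was not tested.

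**Figure D2:**
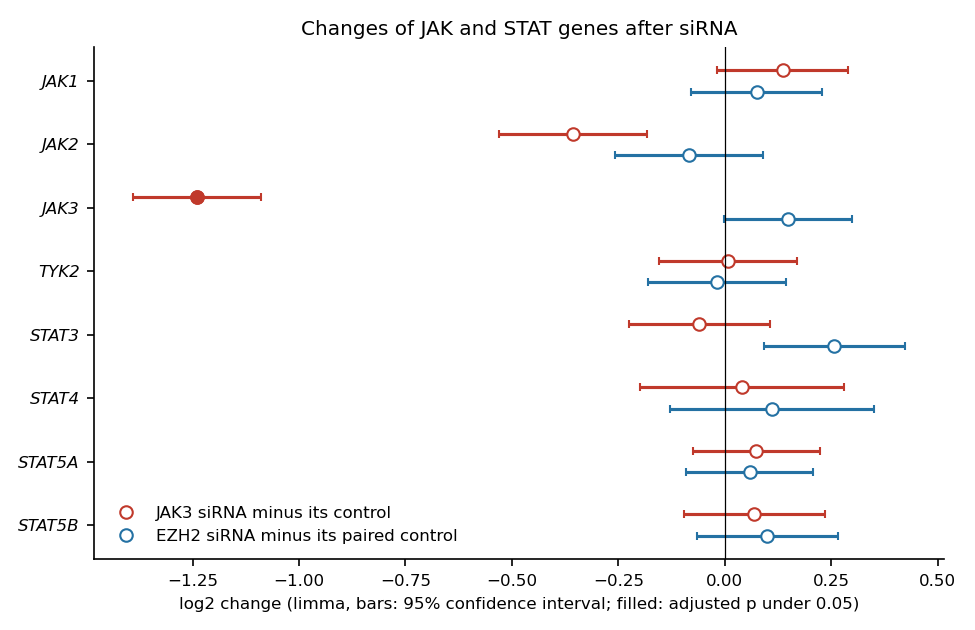
Log2 change of each JAK and STAT gene with JAK3 siRNA (red) and with EZH2 siRNA (blue) against its own control siRNA; bars are 95% confidence intervals from limma and a filled point has an adjusted p under 0.05. Only JAK3 after JAK3 siRNA, at -1.24, is filled, and STAT3 after EZH2 siRNA (0.26) and JAK2 after JAK3 siRNA (-0.36) have intervals that leave out 0.

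The effects of the 2 siRNAs were set against each other within the same limma fit. Their difference, JAK3 siRNA effect minus EZH2 siRNA effect, was -1.39 for JAK3 (SE 0.098, adjusted p = 8.68e-05), and this was the 1 of 8 genes called, against 0.366% of all genes. At an unadjusted p under 0.05, 3 of 8 genes passed against 8.14% of all genes. The other 2 were STAT3, at -0.32 (adjusted p = 0.382), and JAK2, at -0.27 (adjusted p = 0.54). For JAK1, TYK2, STAT4, STAT5A and STAT5B the differences ran from -0.071 to 0.061, with adjusted p-values of at least 0.955.

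The controls of the 2 arms were compared as values. JAK2 averaged 118 in the JAK3 arm controls and 93.9 in the EZH2 arm controls, and STAT5A averaged 439.6 and 361. STAT3 averaged 1172 and 1049, and JAK1 averaged 582 and 560. These 4 of 8 genes had no overlap between the control groups, a share near the 42.6% of all genes, and JAK3 itself averaged 324 and 325.

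The other genes of the pathway were described by their role. Among 27 tested cytokine receptor chains (of 39 listed, 37 with a probe set of their own), 0 were called after JAK3 siRNA by limma and 7 passed at an unadjusted p under 0.05, where 12.4% of all genes did. Their median log2 change was 0.028, against -0.010 over all genes. The 3 smallest p-values were those of IL23R, a chain of the IL-23 receptor (0.42, adjusted p = 0.112), IL10RA, the ligand-binding chain for IL-10 (-0.26, adjusted p = 0.130), and IL12RB2, a chain of the IL-12 receptor (-0.27, adjusted p = 0.169). The chains on which JAK1 and JAK3 sit in the IL-2 receptor, IL2RB and IL2RG, differed by 0.16 (adjusted p = 0.391) and 0.044 (adjusted p = 0.893).

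Of 13 tested cytokine ligands (25 listed, 23 with a probe set), 2 fell after JAK3 siRNA and 0 rose, while 0.76% of all genes fell and 0.622% rose; the median of the list was -0.0015. IL10, the cytokine that signals through JAK1, TYK2 and STAT3, read 480 and 489 against 904 and 852. The siRNA arrays lay far below both controls, and IL10 fell by 0.86 (SE 0.083, adjusted p = 0.000291), a call it kept in all 13 alternatives. OSM, an IL-6 family cytokine and STAT5 target, read 82.6 and 73.9 against 128 and 123 and fell by 0.69 (SE 0.103, adjusted p = 0.00619). With the control siRNA given for EZH2, OSM read 119 and 84.5, below both JAK3 arm controls and above both JAK3 siRNA arrays.

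Of 20 tested negative regulators (21 listed), 2 fell and 0 rose, while 0.76% of all genes fell and 0.622% rose. The median of the list was -0.030, against -0.010 over all genes. CISH and SOCS1 are inhibitors that STAT5 is known to induce and that block the IL-2 receptor and its JAKs. CISH read 241 and 249 with JAK3 siRNA and 349.8 and 349 with the control, and fell by 0.51 (SE 0.083, adjusted p = 0.00964). SOCS1 read 156 and 155 against 219.6 and 219, and fell by 0.50 (SE 0.069, adjusted p = 0.0038). Replicates differed by far less than the groups in both genes. With the control siRNA given for EZH2, CISH read 372 and 319, on either side of the JAK3 arm controls. SOCS1 read 194 and 168 there, below both JAK3 arm controls and above both JAK3 siRNA arrays. SOCS2, another inhibitor of this family, read 179 and 173 against 210.4 and 201, with a difference of -0.23 that missed the threshold (adjusted p = 0.213), and SOCS3 differed by -0.18 (adjusted p = 0.516).

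Of 24 tested genes known to be induced by STATs in lymphocytes, 4 fell and 0 rose, while 0.76% of all genes fell and 0.622% rose. In the list 16 of 24 lay below 0, a share that was not counted over all genes. The median was -0.096 against -0.010 over all genes. SOCS1, OSM and CISH stand in this list too. The other is BCL2L1, which encodes the survival protein BCL-XL. BCL2L1 read 301 and 275 against 404 and 378 and fell by 0.44 (SE 0.076, adjusted p = 0.0124). With the control siRNA given for EZH2 it read 297 and 316, below both JAK3 arm controls. Of the JAK3 siRNA values, 301 lay between 297 and 316 and 275 lay below them. IL2RA, the alpha chain of the IL-2 receptor and another STAT5 target, read 4215 and 3939 against 4027 and 3968 (0.028, adjusted p = 0.927), and PIM1, a kinase gene of the same kind, differed by -0.036 (adjusted p = 0.916). The list was chosen with earlier results of these data known and is not independent evidence of its direction.

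Leaving out an array of the arm ended these calls, other than that of IL10, and without the filter on low signal CISH (adjusted p = 0.0522) and OSM (0.0684) lost theirs too. CISH lost its call without any 1 of the 4 arrays (adjusted p from 0.102 to 0.132), as did SOCS1 (0.0614 to 0.0811) and BCL2L1 (0.0721 to 0.238). OSM lost it without JAK3 siRNA array 2 (adjusted p = 0.140), control array 1 (0.102) or control array 2 (0.0644). The sizes moved little, from -0.53 to -0.49 for CISH, -0.50 to -0.49 for SOCS1, -0.77 to -0.60 for OSM and -0.51 to -0.38 for BCL2L1.

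**Figure D3:**
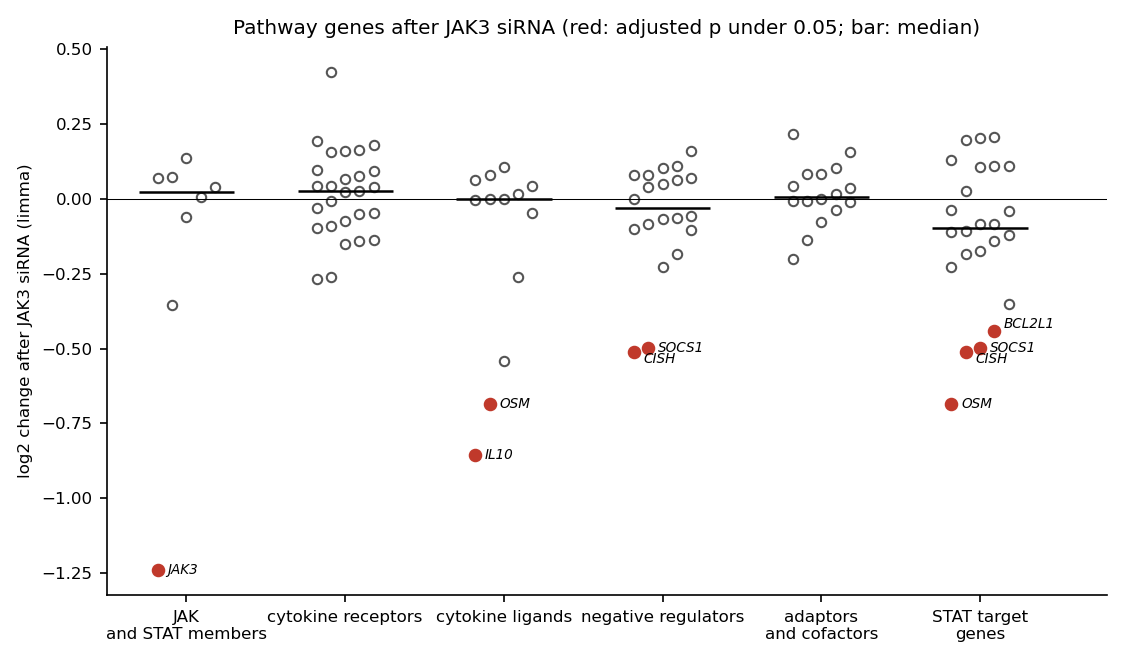
Log2 change after JAK3 siRNA (limma) of the 8 measured JAK and STAT genes and of the tested genes of 5 pathway lists, each point a gene, with the median of a list as a bar and calls at an adjusted p under 0.05 in red. All calls lie below 0: JAK3 at -1.24, IL10 at -0.86, OSM at -0.69, CISH at -0.51, SOCS1 at -0.50 and BCL2L1 at -0.44, some of them shown in 2 lists.

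The start region of CISH is shown because it holds copies of the motif that STAT dimers are known to bind. Of the genes above called after JAK3 siRNA it is the 1 with copies, while OSM had no window to search. The letters searched were TTCNNNGAA, which reads the same on both strands, in the 250 bases before each gene's start in the RefSeq table of GRCh38.p14. The window lies at chr3:50611775-50612024 on the minus strand, written 5′ to 3′ along the gene, with the motif copies in capitals.

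CISH promoter: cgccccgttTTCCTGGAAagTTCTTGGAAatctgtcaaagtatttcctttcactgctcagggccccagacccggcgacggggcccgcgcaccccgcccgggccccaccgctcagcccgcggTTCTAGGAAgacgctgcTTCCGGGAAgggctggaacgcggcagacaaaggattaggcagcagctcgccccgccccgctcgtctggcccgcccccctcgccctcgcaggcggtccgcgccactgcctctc

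The 4 copies begin 241, 230, 129 and 112 bases before the start, in 2 groups of 2. Of 35116 windows of 27305 genes, 6.57% hold at least 1 copy and 0.0142% (5 windows) hold 4 or more. Other receptors, ligands, adaptors and STAT targets of the pathway lists also hold a copy, and none of those tested was called after JAK3 siRNA. SOCS1, BCL2L1 and IL10 had 0 copies in their windows, as had the 17 windows of the 9 JAK and STAT genes; these letters are simply not in those windows. A match is a description of the sequence, and binding was not measured.

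The remaining lists held no call after JAK3 siRNA. Among 16 adaptors and cofactors 0 were called by limma and 2 passed at an unadjusted p under 0.05, a share close to the 12.4% of all genes, with a median of 0.0078. EP300, a histone acetyltransferase that STATs recruit, showed 0.22 (adjusted p = 0.252), STAM, an adaptor of JAK2 and JAK3, -0.20 (adjusted p = 0.284) and PTK2B, a tyrosine kinase, 0.16 (adjusted p = 0.449). STAT6, the factor of IL-4, showed -0.014 (adjusted p = 0.965).

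After EZH2 siRNA, the same lists held 1 call. CBLB, a ubiquitin ligase that restrains lymphocyte activation, read 439.8 and 489 against 262 and 398 and rose by 0.52 (SE 0.101, adjusted p = 0.0444), against 0.373% of all genes called higher. The call was lost in 7 of 13 alternatives, and without the siRNA array or the control array of pair 1 it was 0.30 (adjusted p = 0.352 and 0.349). CISH read 269.6 and 289 against 372 and 319, lower in both pairs, with a difference of -0.31 that missed the threshold (adjusted p = 0.0993). The median of the negative regulators was 0.0068, with 1 of 20 called.

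Over all genes 0.94% were called by limma after EZH2 siRNA and 15.6% passed at an unadjusted p under 0.05, shares that stand beside each count here. Among the receptors 0 of 27 were called and 5 passed unadjusted, near the share of all genes. Their median was 0.088 against -0.0042 over all genes. IL2RA showed 0.29 (adjusted p = 0.0719), IL2RG 0.21 (adjusted p = 0.226) and IL6ST, the shared chain of IL-6 type cytokines, 0.26 (adjusted p = 0.244). Of the ligands 0 of 13 were called and 1 passed unadjusted: IFNG, the interferon of natural killer cells, at 0.58 (adjusted p = 0.148), ahead of IL12B at 0.15 (adjusted p = 0.331) and IL11 at 0.14 (adjusted p = 0.399). Of the STAT targets 0 of 24 were called and 7 passed unadjusted, led by PRF1, which encodes perforin, at 0.47 (adjusted p = 0.0501), IL2RA, and CCND3, a cyclin, at -0.35 (adjusted p = 0.0837). Of the adaptors 0 of 16 were called and 0 passed unadjusted, with SYK at -0.18 (adjusted p = 0.376), IRF9 at 0.17 (adjusted p = 0.398) and STAM at -0.13 (adjusted p = 0.442). STAT6 showed 0.071 (adjusted p = 0.743).

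In the difference between the siRNA effects, 1 gene of these lists was called. IL10 was -0.86 after JAK3 siRNA and 0.13 after EZH2 siRNA, a difference of -0.99 (SE 0.118, limma adjusted p = 0.00299) that stayed called in all 17 alternatives. In the EZH2 arm IL10 read 1311 and 1286 with the siRNA against 1077 and 1305, so that only pair 1 was higher. The controls of the JAK3 arm, at 904 and 852, lay below both of those controls. CISH differed by -0.21 (adjusted p = 0.716) and SOCS1 by -0.28 (adjusted p = 0.394), so that their calls after JAK3 siRNA are not shown to be particular to that siRNA. IFNG had the next smallest adjusted p and missed the threshold, with -0.54 after JAK3 siRNA and 0.58 after EZH2 siRNA, a difference of -1.12 (SE 0.257, adjusted p = 0.119). It read 153 and 149 with JAK3 siRNA against 222 and 218, and 141 and 72.8 with EZH2 siRNA against 63.1 and 73.4, so that in the EZH2 arm only pair 1 was higher with the siRNA. In the lists without a call, the smallest adjusted p was 0.221 among the STAT targets (BCL2L1, -0.39), 0.320 among the negative regulators (CBLB, -0.45), 0.382 among the receptors (IL12RB2, -0.34) and 0.583 among the adaptors (LCK, -0.28).

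With the full-length EZH2 plasmids, EZH2 read 803 to 2221 (median 951) on 6 arrays, against 259 and 349 with the vector, with no overlap. The log2 difference was 1.85 (SE 0.347, unadjusted p = 0.000348, adjusted p = 0.99998), and limma called 0 of 14410 genes (0%) and 10 (0.0694%) at an unadjusted p under 0.05. None of the 8 JAK and STAT genes passed either threshold. Their differences ran from -0.21 (TYK2) to 0.21 (STAT4), with 95% intervals between -0.66 and 0.77. With the set as a block the differences were the same and the intervals narrower, between -0.47 and 0.71 over the 8 genes and from -0.32 to 0.35 for JAK1 (SE 0.152 against 0.300), still with 0 genes called. The summed natural killer cell marker signal was 5378 and 5679 with the vector and 4980 to 7149 with full-length EZH2, that of epithelial cell and fibroblast markers 646 and 1099 against 644 to 947, and their part was not tested.

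As deposited, the vector arrays of set 1 and set 2 differed most for the kinases JAK1 and JAK2. JAK1 read 307 in the set 1 vector and 613 in that of set 2, and the full-length arrays read 312, 425 and 346 in set 1 (Y244D, Y244A, WT) and 557, 489 and 564 in set 2. JAK2 read 48.2 and 95.9 in the vectors, and 49.9, 71.0 and 56.2 in set 1 against 88.2, 63.0 and 95.2 in set 2. In JAK1 all 4 arrays of set 2 lay above all 4 of set 1, as they did in STAT5A, and 16.3% of all genes share this. After quantile normalization it held for JAK1 and not for STAT5A, while in STAT5B all 4 arrays of set 2 lay below all 4 of set 1. The log2 gap between the vectors was then 0.44 for JAK1 and 1.19 for JAK2.

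STAT5A read 228 and 358 in the vectors, 222, 262 and 269 in set 1 and 336, 294 and 307 in set 2. STAT4 read 91.6 and 154 in the vectors, 112, 157 and 142 in set 1 and 172, 100 and 153 in set 2, so that the sets overlap. STAT3 read 924 and 1345 in the vectors, while its 6 full-length arrays lay close together at 1211 to 1395 (median 1257). The set 1 vector was thus the low array for STAT3, below every full-length array and the other vector.

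JAK3 read 206 and 262 in the vectors, 204, 284 and 247 in set 1 and 258, 216 and 259 in set 2. STAT5B read 365 and 468 in the vectors, 357, 435 and 438 in set 1 and 402, 391 and 418 in set 2. TYK2 read 289.9 and 249.7 in the vectors, 225, 228 and 257 in set 1 and 244.04, 232 and 216 in set 2. The vector of set 2 was above that of set 1 by 0.35 (log2) for JAK3 and 0.36 for STAT5B and below it by 0.22 for TYK2; after quantile normalization these became -0.12, -0.21 and -0.79, so that for JAK3 and STAT5B the direction turned.

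The mean of the full-length arrays was read against the vector of the same set. As deposited, it lay above that vector in set 1 and below it in set 2 for each gene but TYK2. After quantile normalization this held for JAK2, JAK3, STAT3 and STAT4. The share of all genes with such means was not counted, and each mean is read against a single vector array. JAK1, JAK2 and STAT3 were above the vector on all 3 arrays of set 1 and below it on all 3 of set 2. This held for 3 of 8 genes and for 19.6% of all genes. After quantile normalization it held for JAK2 (0.087 to 0.69 in set 1, -0.70 to -0.012 in set 2), while JAK1 ran from -0.095 to 0.066 in set 1 and STAT3 from -0.086 to 0.061 in set 2. In set 1 the mean differences were 0.22 for JAK1, 0.28 for JAK2, 0.46 for STAT3 (unadjusted p = 0.0162, adjusted p = 0.281) and 0.57 for STAT4. In set 2 they were -0.20, -0.25, -0.087 and -0.15, and JAK3, STAT5A and STAT5B went from 0.23, 0.13 and 0.16 to -0.11, -0.20 and -0.21.

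The difference between the sets was tested with an interaction in limma. It was largest for STAT4 (-0.72, adjusted p = 0.417), STAT3 (-0.55, unadjusted p = 0.0361, adjusted p = 0.4) and JAK2 (-0.52, adjusted p = 0.473), and no gene of the 14410 passed (0%), with 1762 (12.2%) at an unadjusted p under 0.05. TYK2 was the 1 gene of 8 below the vector on every full-length array of both sets, by 0.30 on average in set 1 and by 0.12 in set 2. Over all genes 2.53% did so. After quantile normalization TYK2 ran from -0.75 to -0.43 in set 1 and from -0.17 to 0.12 in set 2. Its adjusted p was 0.99998 over both sets, and 0.39 and 0.999 within them.

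**Figure D4:**
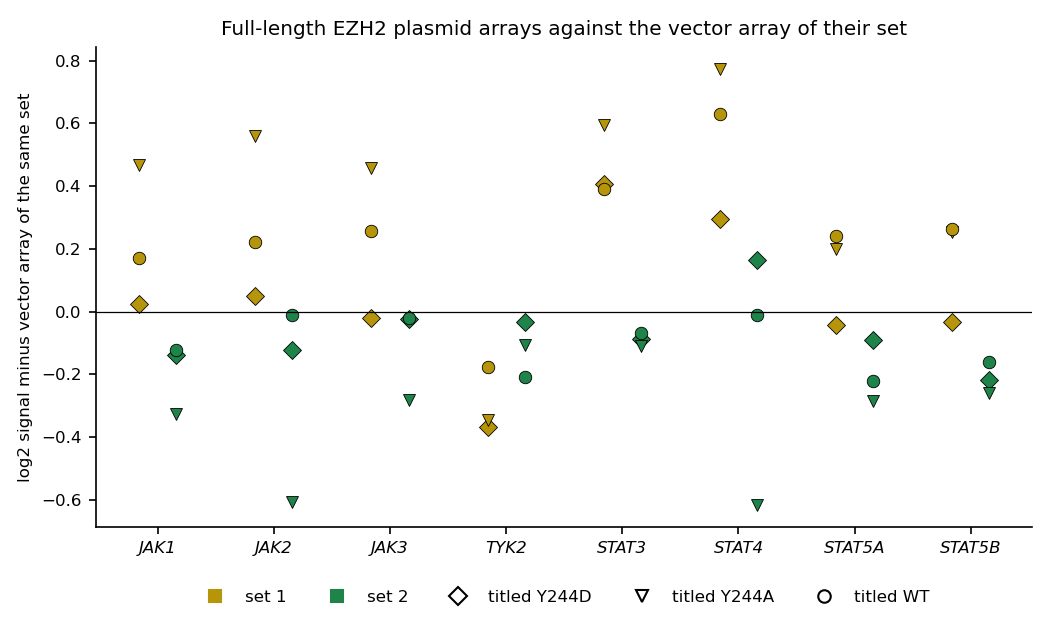
Log2 signal of each full-length EZH2 plasmid array minus the vector array of its own set, for the 8 measured JAK and STAT genes, with set 1 in gold, set 2 in green and the symbol giving the construct in the title. As deposited, JAK1, JAK2 and STAT3 have all gold points above 0 and all green points below and TYK2 has all points below 0, which after quantile normalization held for JAK2 alone, and the lowest green points of JAK2 (-0.61) and STAT4 (-0.62) are the set 2 array titled Y244A.

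The array with SET-deleted EZH2 is single, has no set number and gives values with no test. Its EZH2 signal was 1471, above both vectors by 2.51 and 2.07 (log2), and its summed natural killer cell marker signal, 4441, was the lowest of all 17 arrays. JAK3 read 156 there, below the vectors at 206 and 262 by 0.41 and 0.75 and below all 8 other plasmid arrays. STAT5B read 307 against 365 and 468, and TYK2 read 207 against 289.9 and 249.7, both again below all 8. That made 3 of 8 genes, while 10.9% of all genes were lowest on this array. After quantile normalization JAK3 was 0.61 and 0.49 lower than the vectors and STAT5B 0.47 and 0.27 lower, while TYK2 was 0.75 lower than the first and 0.036 higher than the second.

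As deposited, the other genes lay between the vectors on the SET-deleted array. JAK1 read 442 there, JAK2 59.0, STAT3 1102, STAT4 105 and STAT5A 255. A distance of at least 0.5 from both vectors in the same direction was reached by 0 of 8 genes, and by 0.673% of all genes.

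The alleles were compared under both readings of the set 2 labels, with 2 arrays per allele. No gene of the 14410 passed in limma for Y244D against WT, Y244A against WT or Y244D against Y244A (0% in each), by title or by field. At an unadjusted p under 0.05 there were 0, 5 and 0 genes by title and 48, 3 and 183 by field, among them 0 of the 8 JAK and STAT genes. Their differences ran from -0.23 to 0.15 over the 3 contrasts by title and from -0.56 to 0.22 by field, where STAT4 was lower with Y244D than with WT by 0.56 (unadjusted p = 0.0726, adjusted p = 0.964) and JAK2 lower with Y244D than with Y244A by 0.55 (adjusted p = 0.803). The 95% intervals reached from -1.41 to 1.08, in fits without a term for the set.

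Between siRNA and plasmid arrays, levels were set side by side without a test, since the kind of nucleic acid and the distribution of the array cannot be told apart. The summed natural killer cell marker signal was 7781 to 11957 on siRNA arrays and 4441 to 7149 on plasmid arrays, and that of epithelial cell and fibroblast markers 551 to 599 and 644 to 1099; their part was not tested. As deposited, STAT5B alone of the measured genes had no overlap, at 544 to 628 on siRNA arrays and 307 to 468 on plasmid arrays. Its ranges overlapped after quantile normalization, where STAT3 had no overlap instead and was lower on siRNA arrays. With each array centred on its median, STAT5A and STAT5B both had no overlap and were higher on siRNA arrays. The share of all genes without such overlap was not counted. The median on siRNA arrays was higher by 0.64 (log2) for STAT5A, 0.56 for JAK2 and STAT5B and 0.40 for JAK1 and JAK3. Under quantile normalization over all arrays this became 0.23 for STAT5A, 0.69 for JAK2, 0.17 for STAT5B, 0.12 for JAK3 and -0.15 for JAK1. Centring each array on its median gave gaps of the same sign as deposited for these 5 genes, so that JAK1 changed sign under quantile normalization alone.

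Genes whose pattern was most like that of a JAK or STAT gene were sought among 14200 genes, by the smaller of the 2 Pearson correlations over the 8 siRNA and the 9 plasmid arrays. The arrays share treatments and sets, so that these values are a description. For JAK3 the 3 leading genes were FMNL2, a formin (0.90 and 0.88), ZNF84, a zinc finger gene (0.91 and 0.87), and FBXO5, an inhibitor of the anaphase-promoting complex (0.94 and 0.86). FMNL2 read 177 and 175 with JAK3 siRNA against 228 and 231 with the control, and 252 and 226 with EZH2 siRNA against 203 and 209. As in JAK3, it was lower with JAK3 siRNA and higher with EZH2 siRNA than the control of the arm, while its 2 control groups lay apart and those of JAK3 did not; FMNL2 was chosen for this likeness.

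For the other kinases the leading genes were TTC39C for JAK1 (0.99 and 0.96), FAM177A1 for JAK2 (0.97 and 0.95) and TRIM56, a ubiquitin ligase of antiviral signalling, for TYK2 (0.80 and 0.88). For the STATs they were WARS1, the tryptophanyl-tRNA synthetase that interferon gamma induces, for STAT3 (0.94 and 0.97), PIGK for STAT4 (0.95 and 0.95), PIGU for STAT5A (0.94 and 0.94) and NAXE for STAT5B (0.85 and 0.86). WARS1 read 1169 and 1064 with EZH2 siRNA against 783 and 901, and 819 and 1294 in the vectors of set 1 and set 2, both in the direction of STAT3, for which it was chosen. PIGK and PIGU both encode subunits of the enzyme that attaches GPI anchors.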

How the data were processed

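The authors deposited linear signal intensity of 28869 probe sets on 17 arrays. Background correction, normalization and summarisation are not given in the sources used here. The log2 of the deposited intensity was analysed. Per the labels' protocols, RNA was biotin-labelled with Nugen kits. The platform annotation gives a single gene symbol for 19310 probe sets, several for 1752 and none for 7807; the brightest of a gene stood for it, and RefSeq (GRCh38.p14) changed 0 symbols. Genes with a mean under the 30th percentile were left out, except JAK3 and EZH2. Arrays carry no read counts, so that their number limits the precision; 0 arrays repeated another.

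Tests used limma 3.58.1 in R 4.3.3, two-sided, with Benjamini-Hochberg adjustment over all genes, called under 0.05. All 8 siRNA arrays entered 1 fit with the pair as a block in the EZH2 arm (3 residual degrees of freedom), and vector and full-length arrays another (6; alleles and set interaction 4). The p-values rest on how far these arrays spread, and that spread may be technical. In limma the residual of a gene is pooled over both siRNA arms and drawn towards the residuals of all genes. An SE in the EZH2 arm is thus not the spread of its own 2 pairs. Deviations of arrays of an EZH2 pair, tied by their titles, correlated across genes with r = -0.086, and those of same-numbered arrays of the JAK3 arm, which the labels do not pair, with r = 0.15. In set 2 the code MtCA was taken for Y244D and Mt2 for Y244A by likeness to set 1 codes, an assumption, and the array titled WT without a number was put in set 2 because set 1 has its own.

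The genes and pathway lists were chosen with earlier results of these data known. Named are the JAK and STAT genes, EZH2, the genes most alike (3 for JAK3, 1 for the others), and of each list the calls, up to 6 per direction, or where there were 0 the 3 smallest unadjusted p (for the difference between siRNAs the smallest, for plasmids none); IL2RB, SOCS2, SOCS3, PIM1 and, in that difference, IFNG were named beyond this rule after their values were seen, as were list genes repeated from the other siRNA. Fits were tested on simulated data, with noise drawn separately for each array and no shift shared by arrays of a pair or set. The percentages recovered therefore do not cover such shifts. Of 100 genes given a change of 1 (log2), the JAK3 siRNA comparison recovered 96%, EZH2 siRNA 98% and full-length plasmids 44%. Calls on genes given no change were 11 of 167, 7 of 173 and 1 of 45. Of 100 genes given a smaller change, the same comparisons recovered 60%, 68% and 0%. A missed threshold with plasmids thus does not show that a gene kept its level. Alternatives were quantile normalization, median centring, a filter at the 50th percentile or none, averaged probe sets, trend and robust fitting, array weights, fewer arrays, the block, and leaving out each array; leaving out arrays for the difference between siRNAs was added after seeing the data.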

Additional observations from a re-analysis of the deposited data

Results flagged for a closer look

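These 4 effects were flagged as differing between groups, by test for JAK3 and by direction on every array for JAK1, JAK2 and STAT3. The JAK3 siRNA effect minus the EZH2 siRNA effect on JAK3 was -1.39 in limma (adjusted p = 8.68e-05), where JAK3 was itself the target of the first siRNA. Full-length EZH2 plasmid minus vector, set 2 minus set 1, was -0.42 for JAK1, -0.52 for JAK2 and -0.55 for STAT3. Every array was above its vector in set 1 and below it in set 2, as in 19.6% of all genes. The interaction was tested in limma and passed for none of the 3 (adjusted p = 0.467, 0.473 and 0.4). After quantile normalization the opposite directions held for JAK2 alone, with JAK1 at -0.095 to 0.066 in set 1 and STAT3 at -0.086 to 0.061 in set 2. Each set has 1 vector array, and the direction of all 3 arrays of a set rests on it.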

How the results depend on the processing

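With the main settings limma called 200 genes after JAK3 siRNA, 136 after EZH2 siRNA, 53 in the difference and 0 with plasmids. After JAK3 siRNA the count was 94 without the filter, 699 with array weights, 523 in a fit of the 4 arrays compared, 104 with the replicate block in the JAK3 arm (where only numbers are shared) and 33 to 45 leaving out an array. After EZH2 siRNA it was 56 with quantile normalization, 0 without the filter (2511 at an unadjusted p under 0.05), 230 with trend and robust fitting, 0 with array weights (1255 unadjusted), 217 in a fit of the 4 arrays compared with the pair block, 20 without the replicate block and 0 to 1511 leaving out an array, 1511 without either array of pair 2. For the difference it was 15 without the filter, 29 with no replicate block, 19 with a replicate block in both arms and 14 to 323 leaving out an array. The split of EZH2 siRNA calls was 54 higher and 82 lower, 30 and 26 after quantile normalization, and 31 and 161 after centring. For the difference it was 20 and 33, 14 and 25, and 19 and 19. The cause of these shifts was not tested.

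The 8 JAK and STAT genes called after JAK3 siRNA numbered 1, and 2 (JAK3 and JAK2) with trend and robust fitting, array weights or only 4 arrays. After EZH2 siRNA they numbered 0 in every fit that kept both pairs. The replicate block changed no call among them, nor did plasmid set as a block, with 0 genes called (54 unadjusted). Under quantile normalization TYK2 turned to 0.010 after EZH2 siRNA, STAT5A to -0.0044 in the difference and JAK1 to -0.062 with plasmids, none of them called. Leaving out an array turned the sign of small changes. These were TYK2 (-0.040 to 0.054) and STAT4 (-0.044 to 0.12) after JAK3 siRNA, and TYK2 (-0.075 to 0.038), STAT4 (-0.15 to 0.37), JAK2 (-0.22 to 0.052) and STAT5B (-0.0052 to 0.21) after EZH2 siRNA. In the difference they were STAT5B (-0.14 to 0.075), TYK2 (-0.031 to 0.081) and STAT4 (-0.33 to 0.19). With plasmids they were JAK1 (-0.49 to 0.51), JAK2 (-0.48 to 0.51), JAK3 (-0.11 to 0.24), STAT3 (-0.082 to 0.46), STAT4 (-0.17 to 0.58), STAT5A (-0.36 to 0.29) and STAT5B (-0.20 to 0.15).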
